A study of Homo sapiens with 18 samples.

Results

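The MHC class I antigen presentation genes described here are HLA-B, HLA-C, HLA-E, B2M, TAP1, TAP2, PSMB8, PSMB9 and NLRC5. They were chosen by name, for their role in class I presentation and peptide processing, and all 9 were found among the 23622 genes of the count table. This choice, like that of the gene lists below, was made with earlier results of these data known. Shares over all tested genes are therefore given beside the counts as description and not as a test. RNA-seq had been performed on A2780 cells, a cisplatin-sensitive human ovarian carcinoma line, and on Acis (A2780cis) cells, the cisplatin-resistant line derived from it by chronic exposure to the drug. Each line was either left untreated (control) or incubated with 200 µM cisplatin for 3 h, with 3 libraries in each of the 4 groups. The Acis cultures, controls included, were treated with 1 µM cisplatin every 3 passages, so a difference between the lines cannot be told apart from an effect of that maintenance dose, and each line is a single resource rather than a set of independent derivations. ATAC-seq, which maps accessible chromatin, gave 1 peak list for each of the same 4 conditions.

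Class I molecules display peptides from inside the cell to cytotoxic T cells and natural killer cells. A polymorphic heavy chain (such as HLA-B or HLA-C) or the less variable HLA-E pairs with the light chain beta-2-microglobulin (B2M). Peptides are cut by proteasomes, in which PSMB8 and PSMB9 replace constitutive catalytic subunits to form the immunoproteasome, and are carried into the endoplasmic reticulum by the TAP1 and TAP2 transporter. NLRC5 is the transactivator that binds the promoter complex of class I genes, and interferons are the best known inducers of the whole group, in part through IRF1.

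Between 4130644 and 5072216 reads were counted on genes in each library. Values below are normalised read counts, that is, counts divided by TMM-scaled library sizes and brought to a common depth. A gene was called when its adjusted p-value was under 0.05 in edgeR's quasi-likelihood test with Benjamini-Hochberg adjustment over the 15760 tested genes, and a change of 1 or more on the log2 scale in either direction, the fold threshold of the study, was used as a further count. All 9 genes passed the filter on low counts. According to the study's methods, cells were seeded as triplicate wells for each condition. Whether the wells came from separate cultures or days is not given, so the p-values measure only the spread between these libraries, which may be technical. The labelled origin was checked against marker genes. VIM stood at 2006 ± 86.2 normalised counts in A2780 control and 1979 ± 17.4 in Acis control libraries (SD, n = 3). The epithelial keratins differed in opposite directions, with KRT18 at 25.5 ± 6.89 and 143 ± 9.67 and KRT8 at 15.6 ± 4.29 and 4.05 ± 2.47 in the same groups (SD, n = 3; edgeR adjusted p = 7.85e-15 and 5.69e-04). EPCAM, an epithelial adhesion molecule, had 28 counts over all 12 libraries, and KRT7, KRT19, PAX8, WT1 and MUC16 were not among the genes of the table. Of 8 leukocyte markers 3 were in the table, and their summed level was 0.961 to 5.33 in A2780 control and 0 to 2.13 in Acis control libraries. None of 4 endothelial markers was in the table.

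The plainest difference lay between the lines. All 9 genes were lower in Acis control than in A2780 control cells, and 6 of them (HLA-B, HLA-E, TAP1, PSMB8, PSMB9 and NLRC5) were lower by at least 2.07-fold. Over all tested genes 30.6% were called lower, 28.2% were called higher and 12.2% were lower past the fold threshold. The median log2 fold change of the 9 genes was -2.16, against -0.01 for all tested genes. All Acis control libraries lay below all A2780 control libraries in each of the 9 genes, as they did in 33.3% of all tested genes.

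**Figure D1:**
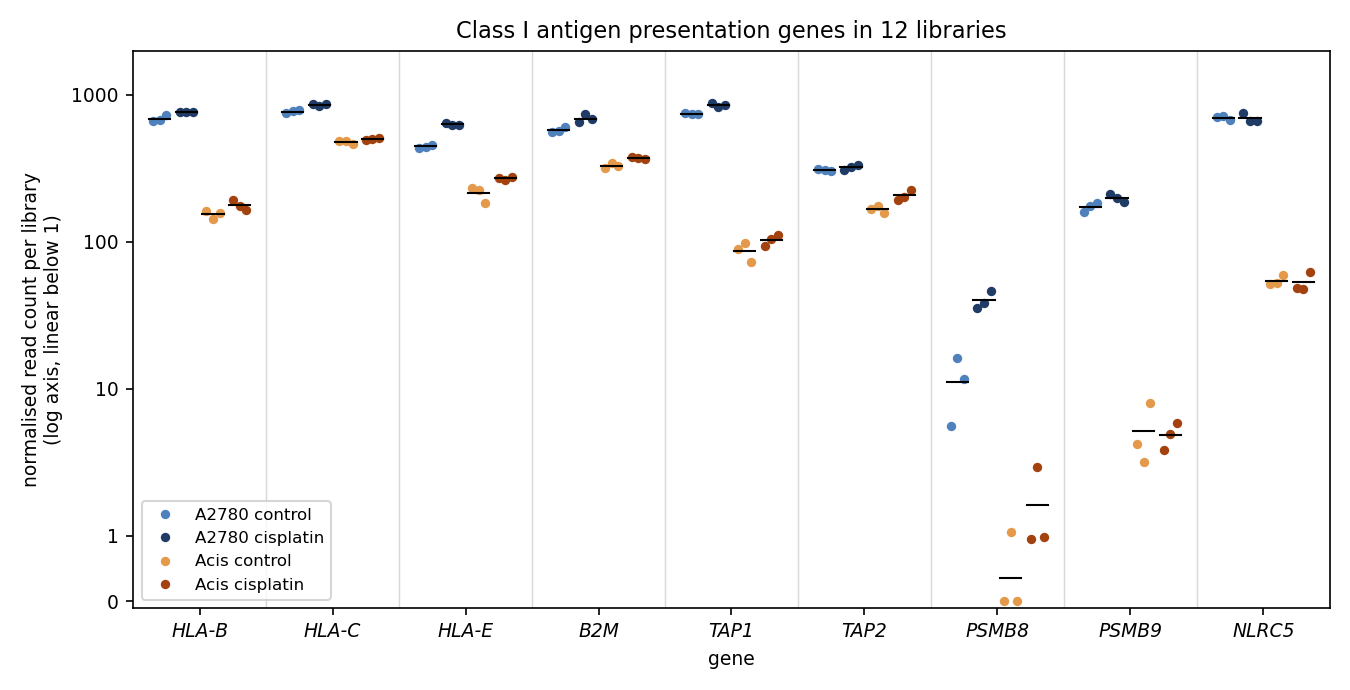
Normalised read counts (log axis, linear below 1) of the 9 genes in the 12 libraries, with 1 point per library and a black line at the mean of each group of 3. The Acis points lie below the A2780 points for every gene, and the gap is widest for PSMB9, PSMB8, NLRC5 and TAP1.

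Among the heavy chains, HLA-B had the largest fitted difference. HLA-B (ENSG00000234745, chromosome 6 from 31353872 to 31367067, minus strand) had 663, 677 and 735 normalised counts in the A2780 control libraries and 163, 143 and 157 in the Acis control libraries. These values do not approach each other, and the fitted difference was 4.47-fold (log2 fold change -2.16, SE 0.07, adjusted p = 5.23e-21 in edgeR's quasi-likelihood test). The annotated HLA-B gene shares 1421 exon bases with the pseudogene DHFRP2, but none of the 75-base stretches of its canonical transcript occurs in another gene. HLA-C (ENSG00000204525), the neighbouring classical heavy chain gene, had 758, 773 and 785 in A2780 control and 489, 490 and 461 in Acis control libraries. Its difference was 1.61-fold (log2 fold change -0.68, SE 0.04, edgeR adjusted p = 1.28e-13). The ratio of HLA-B to HLA-C counts, each divided by transcript length, was 0.899 ± 0.0354 in A2780 control libraries (SD, n = 3). In Acis control libraries it was 0.323 ± 0.0269 (SD, n = 3), with no overlap between the lines. HLA-E (ENSG00000204592), the ligand of the natural killer cell receptor CD94/NKG2A, had 437, 445 and 458 in A2780 control and 232, 227 and 185 in Acis control libraries, a 2.07-fold difference (log2 fold change -1.05, SE 0.07, edgeR adjusted p = 7.50e-14).

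The light chain had a smaller fitted difference than HLA-B. B2M (ENSG00000166710, chromosome 15 from 44711358 to 44718851, plus strand) had 559, 571 and 603 normalised counts in A2780 control and 318, 347 and 328 in Acis control libraries, a 1.74-fold difference (log2 fold change -0.80, SE 0.06, edgeR adjusted p = 1.83e-12). The summed per-length levels of HLA-B, HLA-C and HLA-E were 1.84 ± 0.0106 times that of B2M in A2780 control libraries (SD, n = 3). In Acis control libraries they were 1.41 ± 0.0955 times that of B2M (SD, n = 3). This ratio and that of HLA-B to HLA-C use counts divided by the length of the canonical transcript. Neither was set back for the removal of duplicates described below, which lowers the B2M counts most in A2780 cells. Set back, B2M stood at 903 ± 15.3 in A2780 control and 400 ± 22.6 in Acis control libraries (SD, n = 3). The difference between the lines in the ratio to B2M may therefore be overstated.

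The peptide transporter genes lie next to each other on chromosome 6 and differed in extent. TAP1 (ENSG00000168394, 32845209 to 32853816, minus strand) had 758, 738 and 739 normalised counts in A2780 control and 90.2, 99 and 72.9 in Acis control libraries, an 8.49-fold difference (log2 fold change -3.09, SE 0.07, edgeR adjusted p = 1.64e-23). TAP2 (ENSG00000204267, 32821833 to 32838739, minus strand), its partner in the transporter, had 312, 310 and 304 in A2780 control and 168, 176 and 158 in Acis control libraries, a 1.84-fold difference (log2 fold change -0.88, SE 0.07, edgeR adjusted p = 1.97e-11). With counts divided by transcript length, the TAP1 level was 5.07 ± 0.0538 times that of TAP2 in A2780 control libraries (SD, n = 3). In Acis control libraries it was 1.09 ± 0.113 times that of TAP2 (SD, n = 3). TAP2 shares 2023 exon bases with an overlapping protein-coding gene on the same strand (ENSG00000250264), and 35% of the 75-base stretches of its transcript also occur in transcripts of other genes, so its level is uncertain.

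The immunoproteasome genes were nearly silent in Acis cells. PSMB9 (ENSG00000240065, chromosome 6 from 32844136 to 32859851, plus strand) had 159, 176 and 184 normalised counts in A2780 control and 4.24, 3.19 and 7.97 in Acis control libraries, a 33.1-fold difference (log2 fold change -5.05, SE 0.19, edgeR adjusted p = 1.17e-18). PSMB8 (ENSG00000204264, 32840717 to 32844679, minus strand) was low in both lines, with 6, 17 and 11 counts in the A2780 control libraries and 0, 1 and 0 in the Acis control libraries. The ratio of the summed counts, 34 against 1, was 30.8 after scaling for depth, with an exact 95% interval of 5.16 to 1250 that covers counting error only (edgeR adjusted p = 1.12e-05). PSMB6, the constitutive subunit that PSMB9 replaces, showed 310 ± 8.94 in A2780 control and 339 ± 12 in Acis control libraries (SD, n = 3; edgeR adjusted p = 0.0885). With counts divided by transcript length, the PSMB9 level was 0.45 ± 0.0209 times that of PSMB6 in A2780 control libraries (SD, n = 3). In Acis control libraries it was 0.0122 ± 0.00553 times that of PSMB6 (SD, n = 3).

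The fitted difference of the transactivator gene lay between those of TAP1 and PSMB9. NLRC5 (ENSG00000140853, chromosome 16 from 56989485 to 57083531, plus strand) had 709, 716 and 672 normalised counts in A2780 control and 52, 52.2 and 59.2 in Acis control libraries. The difference was 12.8-fold (log2 fold change -3.68, SE 0.09, edgeR adjusted p = 3.21e-23).

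Per length, the genes kept much of their order. On a scale of normalised counts per kilobase of the canonical transcript, scaled to the library as RPKM values are, the A2780 control level was highest for B2M (134 ± 5.2), followed by HLA-C (109 ± 1.92), HLA-B (98.5 ± 5.45), TAP1 (60.7 ± 0.911), HLA-E (38.3 ± 0.882), PSMB9 (37.1 ± 2.75), NLRC5 (22.5 ± 0.759), TAP2 (12 ± 0.164) and PSMB8 (2.18 ± 1.05, SD, n = 3). Within that order HLA-E and PSMB9 did not differ beyond their spread. In Acis control libraries the order on the same scale was B2M (76.8 ± 3.39), HLA-C (68.1 ± 2.29), HLA-B (22 ± 1.52), HLA-E (18.4 ± 2.24), TAP1 (7.12 ± 1.08), TAP2 (6.48 ± 0.335), NLRC5 (1.76 ± 0.133), PSMB9 (1.1 ± 0.54) and PSMB8 (0.069 ± 0.12, SD, n = 3). In Acis cells HLA-B and HLA-E, TAP1 and TAP2, and NLRC5 and PSMB9 were neighbours in the order whose gap was smaller than the sum of their SDs.

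The removal of duplicates from single-end reads keeps at most 1 read per start position, and the most abundant of these genes came near that ceiling. B2M had 0.599 to 0.636 counts per base of its transcript in A2780 control and 0.305 to 0.346 in Acis control libraries, HLA-C 0.477 to 0.527 and 0.263 to 0.299, and HLA-B 0.449 to 0.463 and 0.0872 to 0.1. When the counts were set back for this ceiling, as a value without a test, the log2 fold change between the control groups became -2.51 for HLA-B, -0.93 for HLA-C, -1.17 for B2M and -3.30 for TAP1. The test-based differences of these 4 genes were thus smaller than the set-back values.

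The lines differed in the same direction after cisplatin. All 9 genes were lower in Acis cisplatin than in A2780 cisplatin libraries, beside 31.2% of all tested genes lower and 31.8% higher, and the same 6 genes passed the fold threshold, beside 11.9% of all. The log2 fold changes ran from -0.63 for TAP2 to -5.32 for PSMB9, with a median of -2.10. For NLRC5 the difference was 13-fold, for TAP1 8.29-fold and for HLA-B 4.3-fold.

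**Figure D2:**
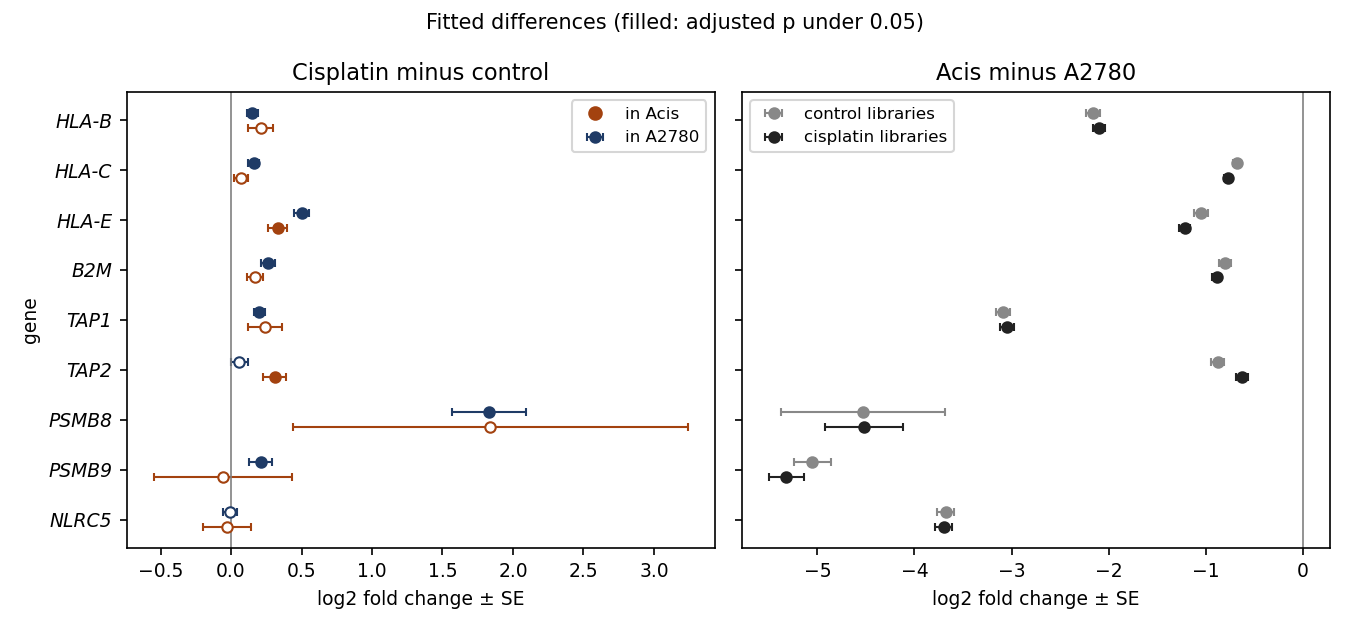
Fitted log2 fold changes with standard errors of the 9 genes after cisplatin in each line (left) and between the lines in each treatment (right). Filled points have an adjusted p-value under 0.05 in edgeR's quasi-likelihood test. All differences between the lines lie below 0, from -0.63 to -5.32, while the cisplatin differences of all genes but PSMB8 lie between -0.06 and 0.50.

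Cisplatin was followed within 3 h by small rises in A2780 cells. 7 of the 9 genes rose, and none fell, beside 21.2% of all tested genes called higher and 28.2% called lower. Only PSMB8 rose past the fold threshold, which 4.14% of all tested genes did. PSMB8 went from 6, 17 and 11 counts in the control libraries to 38, 40 and 47 after cisplatin, a 3.57-fold rise (log2 fold change 1.83, SE 0.26, edgeR adjusted p = 1.21e-06). HLA-E had 640, 628 and 627 normalised counts after cisplatin, all above its control libraries, a 1.42-fold rise (log2 fold change 0.50, SE 0.05, edgeR adjusted p = 3.48e-09).

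The other rises were at most 1.2-fold. B2M stood at 653, 739 and 682 normalised counts after cisplatin (log2 fold change 0.26, SE 0.05, edgeR adjusted p = 5.13e-05). TAP1 stood at 885, 835 and 851 (log2 fold change 0.20, SE 0.04, edgeR adjusted p = 2.62e-04). Set back for duplicate removal, the log2 fold change after cisplatin was 0.54 for B2M, 0.26 for HLA-C and 0.23 for HLA-B, as values without a test. For PSMB9, HLA-C and HLA-B the log2 fold changes were 0.21, 0.16 and 0.15, with edgeR adjusted p-values of 0.0264, 0.00101 and 0.00484. DESeq2 did not call these 3 genes and gave adjusted p-values of 0.331, 0.054 and 0.13, so that it called 4 of the 9. In these 7 genes the cisplatin libraries were above the control libraries without overlap, as in 26.2% of all tested genes. TAP2 (310, 323 and 333 after cisplatin) and NLRC5 (752, 662 and 667) overlapped their control libraries, with log2 fold changes of 0.06 and -0.01 and edgeR adjusted p-values of 0.467 and 0.862. With total counts in place of TMM factors, which moved the median of all genes by 0.11, TAP2 was called as well (log2 fold change 0.18, adjusted p = 0.0154), and HLA-B and HLA-C both had 0.27.

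In Acis cells 2 of the 9 genes rose after cisplatin and none fell, beside 9.35% of all tested genes called higher and 12.4% called lower. HLA-E rose from 232, 227 and 185 to 272, 265 and 275 normalised counts (log2 fold change 0.33, SE 0.07, edgeR adjusted p = 0.00135). TAP2 rose from 168, 176 and 158 to 194, 203 and 227 (log2 fold change 0.31, SE 0.08, edgeR adjusted p = 0.00434). TAP2 was not called by DESeq2 (adjusted p = 0.076), nor by edgeR without Acis cisplatin replicate 3 (adjusted p = 0.0619), which was the highest of its libraries. With total counts in place of TMM factors 4 genes were called, since HLA-B and B2M then passed with adjusted p-values of 0.0316 and 0.011.

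The remaining genes gave no call in Acis cells. HLA-B stood at 193, 176 and 166 after cisplatin and B2M at 378, 372 and 366, with edgeR adjusted p-values of 0.0976 and 0.0588, and neither overlapped its control libraries. TAP1 (94, 105 and 111) and HLA-C (498, 502 and 512) had log2 fold changes of 0.24 and 0.07 and edgeR adjusted p-values of 0.164 and 0.417. PSMB9 had 3.84, 4.92 and 5.89 normalised counts and NLRC5 48.9, 48.2 and 62.8, and both overlapped their control libraries. PSMB8 had 1, 3 and 1 counts, a ratio of 4.48 to the control sum with an exact 95% interval of 0.502 to 212, so a rise like that in A2780 cells was not detectable at this depth.

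The cisplatin effect was compared between the lines directly by the interaction term. It called 0 of the 9 genes in edgeR, beside 13.4% of all tested genes called higher and 5.48% called lower. DESeq2 called 0 of the 8 genes to which it gave an adjusted p-value, which left out PSMB8. TAP2 had an unadjusted p-value under 0.05, the only 1 of the 9, with a log2 difference of 0.25 (SE 0.10, edgeR adjusted p = 0.0913). HLA-E had a log2 difference of -0.17 (SE 0.09, edgeR adjusted p = 0.198), which became -0.26 with an adjusted p of 0.0493 without Acis control replicate 3, the lowest of its libraries. Set back for duplicate removal, as a value without a test, the log2 difference of B2M moved from -0.09 to -0.29. With all 12 libraries the edgeR test showed a different response of the lines for none of these genes, and the wide standard errors of PSMB8 (1.60) and PSMB9 (0.49) leave room for sizeable differences.

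Genes that work beside these 9 did not all follow them. Of 8 genes of peptide loading and trimming 4 were lower and 3 higher in Acis control than in A2780 control libraries. Over all tested genes 30.6% were lower and 28.2% higher. The aminopeptidases that trim peptides in the endoplasmic reticulum were the lowest, ERAP2 at a log2 fold change of -2.04 (SE 0.10, edgeR adjusted p = 2.26e-16) and ERAP1 at -1.33 (SE 0.06, edgeR adjusted p = 1.45e-17). The peptide editors TAPBPL and TAPBP differed by -1.23 and -0.39 (edgeR adjusted p = 2.62e-07 and 1.49e-07). The median of this list was -0.16. Of the 4 immunoproteasome partners 3 were lower, among them the third exchangeable subunit PSMB10 at a log2 fold change of -1.43 (SE 0.22, edgeR adjusted p = 2.79e-06), while PSME2 was not called (-0.13, edgeR adjusted p = 0.066). None of the constitutive subunits PSMB5, PSMB6 and PSMB7 was called between the control groups, with log2 fold changes of 0.03, 0.13 and 0.07.

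The class I-like ligands differed in the opposite direction. Of 6 tested class I-like and non-classical genes 4 were higher and none was lower in Acis control cells. The shares over all tested genes were 28.2% higher and 30.6% lower. MICB and MICA, stress-induced ligands of the activating receptor NKG2D, had log2 fold changes of 0.92 and 0.55 (edgeR adjusted p = 2.16e-13 and 2.44e-07). MR1, which presents small metabolites, and the NKG2D ligand ULBP1 had 1.06 and 1.07 (edgeR adjusted p = 3.95e-05 and 0.00118). Of 4 tested surface ligands of other immune receptors, CD47, NECTIN2 and CD274 were lower, with log2 fold changes of -0.92, -0.74 and -2.31, and PVR was higher, with 0.32.

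Among 15 tested regulators of class I transcription 9 were lower and 3 higher in Acis control cells, beside 30.6% and 28.2% of tested genes. IRF1, the interferon regulatory factor that acts on class I promoters, had a log2 fold change of -1.48 (edgeR adjusted p = 5.23e-17), STAT2 -1.36 (9.65e-13) and RFXAP, a subunit of the complex to which NLRC5 binds, -1.83 (edgeR adjusted p = 1.64e-10). The median of these regulators was -0.40, a smaller difference than that of NLRC5 itself. IRF1 also rose after cisplatin in both lines, by 0.39 on the log2 scale in A2780 cells and 0.44 in Acis cells (edgeR adjusted p = 1.38e-07 and 1.12e-04).

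Of 11 genes of interferon receptors and signalling 6 were lower and 2 higher in Acis control cells, beside 30.6% and 28.2% of tested genes. The kinase JAK1 was higher, with 212 ± 12.6 normalised counts in A2780 control and 1377 ± 27.7 in Acis control libraries (SD, n = 3; edgeR adjusted p = 1.40e-25). SOCS3, a feedback inhibitor of JAK signalling, was lower, with 550 ± 10.7 and 5.79 ± 0.529 (SD, n = 3; log2 fold change -6.54, edgeR adjusted p = 1.70e-25). Both USP18, a negative regulator of interferon signalling, and IFNGR2, a receptor chain for interferon gamma, were lower, with log2 fold changes of -1.46 and -0.38 (edgeR adjusted p = 1.37e-08 and 1.65e-06).

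Interferon-stimulated genes other than these 9 were lower in large part. Of 37 listed genes 34 were in the table and 27 were tested. Of these 27, 21 were lower and 5 higher in Acis control cells, beside 30.6% and 28.2% of all tested genes. Their median log2 fold change was -1.45. GBP1, a guanylate-binding protein, had 467 ± 21.2 normalised counts in A2780 control and 3.95 ± 1.54 in Acis control libraries (SD, n = 3; log2 fold change -6.82, edgeR adjusted p = 1.89e-24). BST2, the antiviral tether tetherin, had 430 ± 14.9 in A2780 control libraries (SD, n = 3) and no count in any Acis control library, so that it was at least 395-fold lower, at a floor of 3 counts over the group (edgeR adjusted p = 1.22e-21). PARP9 and PARP14 had log2 fold changes of -2.61 and -1.12 (edgeR adjusted p = 6.22e-21 and 1.07e-18). After cisplatin edgeR called 7 of the 27 higher and 4 lower in A2780 cells, beside 21.2% and 28.2% of all tested genes, and DESeq2 called 5 in either direction. In Acis cells edgeR called 0 of 27, beside 9.35% higher and 12.4% lower of all tested genes (1 at an unadjusted p under 0.05 and 0 in DESeq2, median log2 fold change -0.03). Gene by gene, the interaction term called 2 of the 27 higher and 1 lower in edgeR, beside 13.4% and 5.48% of all tested genes. DESeq2 called 1 of them for the interaction. Whether the cisplatin effect on the list as a whole differed between the lines was not tested. MHC class II genes were scarce, with 4 of 11 tested, of which CD74 was higher (log2 fold change 1.59, edgeR adjusted p = 6.94e-07) and HLA-DPA1 lower (13.3 ± 3.3 against 0.709 ± 0.614 normalised counts, SD, n = 3; edgeR adjusted p = 5.44e-06) in Acis control cells.

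**Figure D3:**
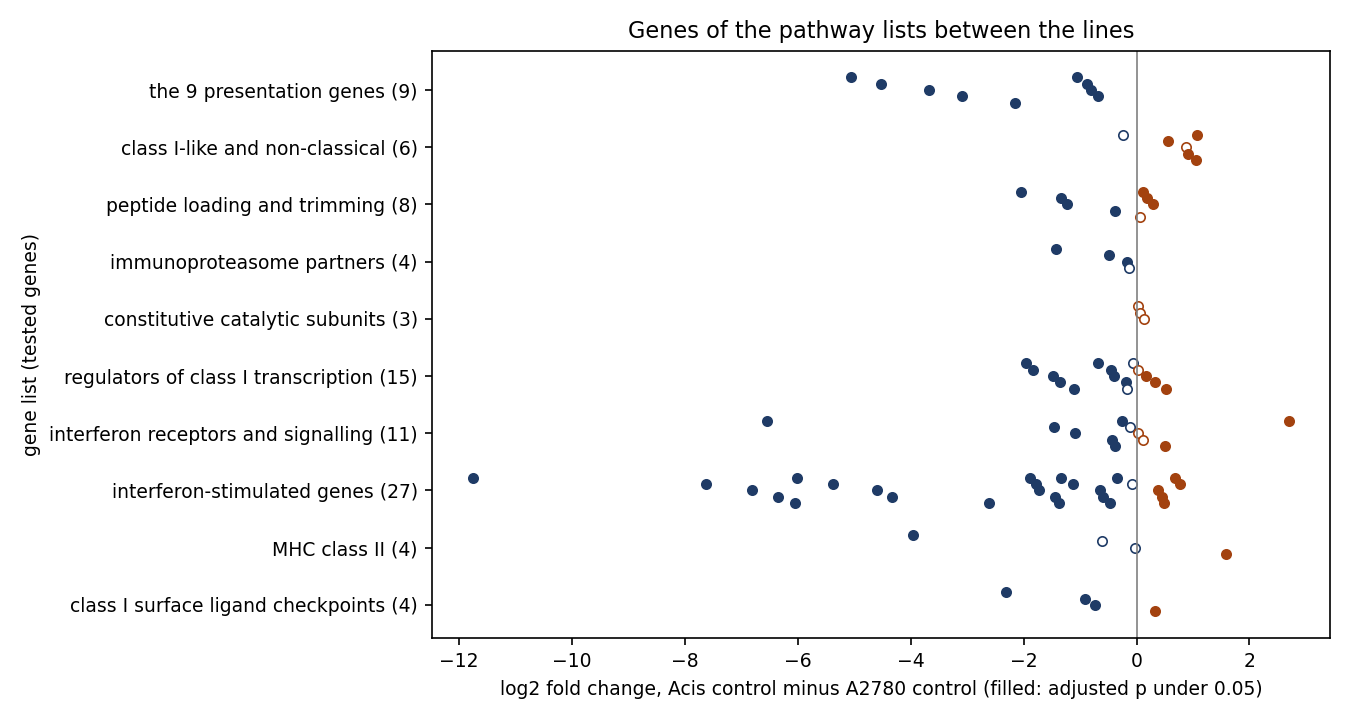
Log2 fold changes of the 9 genes and of the tested genes of 9 lists between Acis control and A2780 control libraries, with 1 point per gene and the number tested in brackets. The 9 presentation genes all lie below 0, as do 22 of the 27 interferon-stimulated genes, 1 of them without a call, while the class I-like genes lie mostly above 0. The leftmost point is BST2, whose fitted value depends on the prior count because it had no count in Acis control libraries.

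Another group of genes moved with the lines in the same direction as the class I genes. All 6 fibroblast markers of the marker list were tested, and 5 were lower in Acis control cells, beside 30.6% of all tested genes. COL1A1, a collagen chain, went from 843 ± 57.2 to 16.4 ± 7.12 normalised counts (SD, n = 3), COL1A2 from 787 ± 26.8 to 0 in all 3 libraries (at least 723-fold lower, at the same floor), and THY1 from 504 ± 15.8 to 516 ± 3.13. The summed level of the 6 markers was 2170 to 2320 in A2780 control, 1793 to 1999 in A2780 cisplatin, 531 to 548 in Acis control and 495 to 550 in Acis cisplatin libraries. Their part in the class I difference was not tested, and in such bulk samples fewer cells that express a gene and less of its RNA per cell cannot be told apart. The leukocyte markers CD14, CD68 and HLA-DRA summed to at most 13.7 normalised counts in any library.

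Genes that lie around these 9 were examined as well. Between the start of HLA-E and the end of PSMB9 on chromosome 6 (30489509 to 32859851), 70 other genes were tested, of which 23 were higher and 17 lower in Acis control cells, 3 of them past the fold threshold, with a median log2 fold change of -0.08, beside 28.2% higher and 30.6% lower of all tested genes. Whether the 9 genes differed from the genes around them was not tested. The genes next to NLRC5, HERPUD1 and CPNE2, had log2 fold changes of -0.26 and 0.12 (edgeR adjusted p = 1.57e-04 and 0.175). At B2M both neighbours were lower in Acis control cells, TRIM69 with a log2 fold change of -1.60 (edgeR adjusted p = 1.89e-13) and PATL2 with 7.75 ± 3.06 normalised counts in A2780 control and 0.735 ± 0.637 in Acis control libraries (SD, n = 3; edgeR adjusted p = 1.81e-04). After cisplatin in A2780 cells 25 of the 70 genes rose and 2 fell, beside 21.2% higher and 28.2% lower of all tested genes, with a median of 0.22, against 0.20 for the 9 genes.

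The genes with the most similar course over the 12 libraries were found by the root mean square difference of log2 CPM values, each gene centred on its own mean. They included MEIS3 (0.116) and MOV10 (0.152) for HLA-B, RHOC (0.0559), SAP18 (0.0617) and FN3KRP (0.0791) for B2M, and APOE (0.127), SH2D2A (0.146) and FRMD7 (0.154) for NLRC5. SH2D2A and FRMD7 had 22.4 ± 3.02 and 21.6 ± 2.06 normalised counts in A2780 control libraries (SD, n = 3) and 0 in both Acis groups. Their closeness to NLRC5 therefore depends on the prior count added before taking logarithms, and their fitted log2 fold changes were -7.49 and -7.44. None of these is a gene of the class I pathway lists. APOE, an apolipoprotein, had 559 ± 27.8 normalised counts in A2780 control and 46 ± 2.76 in Acis control libraries (SD, n = 3).

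The chromatin data were read at the promoters of the same genes. In the deposited peak lists, a peak lay within 1000 bases of the annotated gene start for all 9 genes in both A2780 lists, for 8 in the Acis control list and for 9 in the Acis cisplatin list. The share of all tested genes with such a peak was 69.3% and 70.4% in the A2780 control and cisplatin lists and 63% and 67% in the Acis control and cisplatin lists. At the start of the canonical transcript, which for HLA-B and PSMB9 lies far inside the annotated gene, the counts were 9, 9, 8 and 8, beside 72.9%, 74.4%, 66.4% and 70.7% of all tested genes. The lists held between 24485 and 34979 peaks. Limited to the 20000 peaks of highest −log10 q in each, they kept a peak near the annotated start for 9 genes in A2780 control, 7 in A2780 cisplatin (without PSMB8 and PSMB9), 8 in Acis control and 9 in Acis cisplatin. The annotated starts of PSMB8 and PSMB9 lie near the same peak, so its absence counts for both genes. In the full lists at the canonical start, NLRC5 lacked the peak in the Acis control list and HLA-B in the Acis cisplatin list. Each list merges the replicates of a condition, so differences between lists come without a measure of replicate spread, and the depth behind each list is unknown.

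The peaks did not shrink in step with the transcripts. The peak over the shared start region of TAP1 and PSMB9, which are transcribed away from each other, had a fold enrichment over local background of 17.4 (control) and 14.5 (cisplatin) in the A2780 lists, and of 21.8 (control) and 21.6 (cisplatin) in the Acis lists. The B2M peak had 21.2, 15, 26.1 and 23.6, and that near PSMB8, with its summit 645 to 707 bases upstream of the canonical start, 13.8, 8.61, 22 and 20.3 in the same order. All genes with a peak in both control lists had a median log2 ratio of 0.14 between Acis and A2780, and TAP1 and PSMB9 had 0.33, B2M 0.30, PSMB8 0.67, HLA-C 0.26, HLA-E 0.41 and TAP2 0.06. Between the cisplatin lists the median over all such genes was 0.37. There TAP1 and PSMB9 had 0.58, B2M 0.65, PSMB8 1.24, HLA-C 0.45, HLA-E 0.51, TAP2 0.22 and NLRC5 0.38. Of the 8 genes with a canonical-start peak in both control lists, HLA-B alone had the lower value in Acis, at 9.82 against 10.9 (log2 ratio -0.15), and its second peak near the outermost gene start had 30.9 against 27.8.

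**Figure D4:**
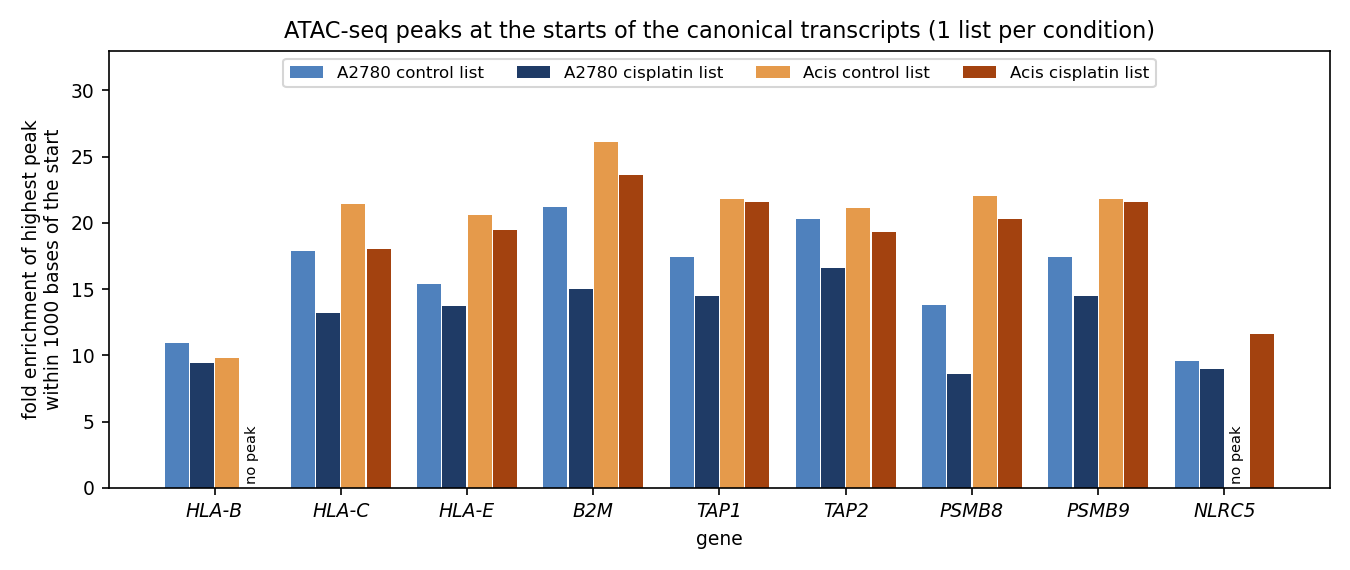
Fold enrichment of the highest ATAC-seq peak within 1000 bases of the canonical start of each of the 9 genes in the 4 peak lists, with 1 list per condition and therefore no error bars. Peaks are listed for 9, 9, 8 and 8 genes. Those of TAP1, PSMB9, PSMB8, B2M, HLA-C, HLA-E and TAP2 are higher in the Acis list than in the A2780 list of the same treatment. Over all genes with a peak in both lists, the median log2 ratio of Acis to A2780 was 0.14 for control and 0.37 for cisplatin.

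At NLRC5 the lists differed in position. The peak at its start, with its summit 25 bases upstream of the canonical start in the A2780 lists, had a fold enrichment of 9.59 in A2780 control and 8.94 in A2780 cisplatin cells, was not listed in Acis control cells and had 11.6 in Acis cisplatin cells. A further peak with its summit 2400 bases into the gene was listed in A2780 control (chr16:56991426-56992284, 7.97) and, at 2421 bases, in A2780 cisplatin cells (4.72) and in neither Acis list. An intragenic peak with its summit 56444 bases downstream of the start was listed in Acis control (chr16:57045710-57046208, 10.7) and, at 56468 bases, in Acis cisplatin cells (9.26) and in neither A2780 list. A peak just past the gene end, 94911 to 94933 bases from the start, was in all 4 lists, with 9.84, 8.84, 9.48 and 10.6.

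**Figure D5:**
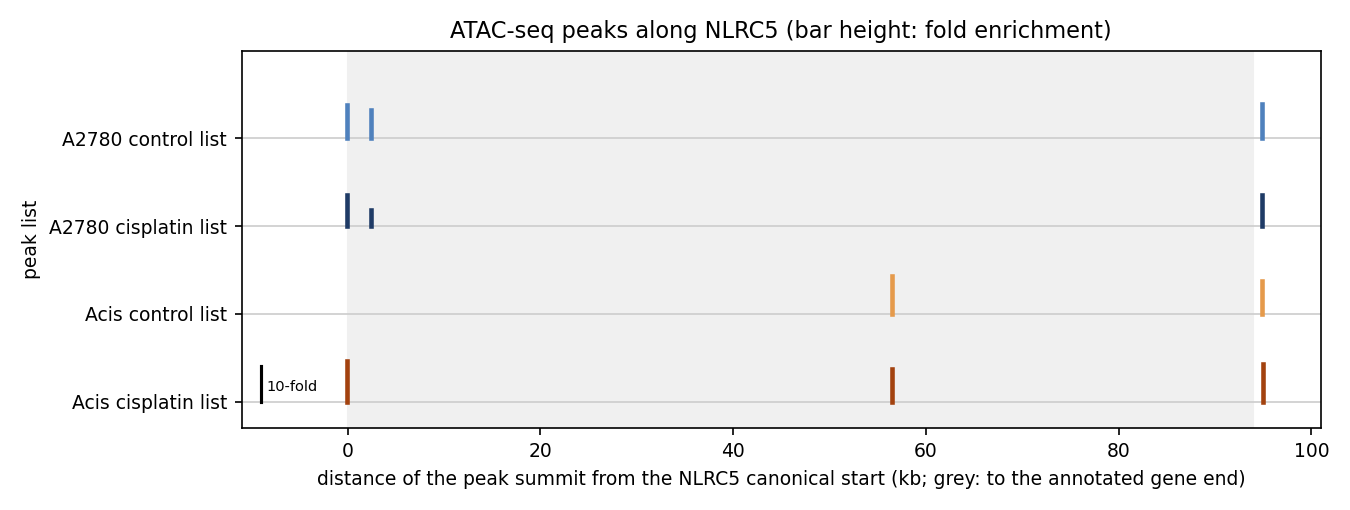
Summits of ATAC-seq peaks along NLRC5 in the 4 lists, by distance from the canonical start in kb, with the fold enrichment as the height of each line and the gene in grey. Lines at 2400 and 2421 bases are seen in the A2780 lists alone, those at 56444 and 56468 bases in the Acis lists alone, and those from 94911 bases on in all 4.

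Promoter sequences of these genes are shown to let the regulatory elements of the pathway be read beside the values. RefSeq promoter windows (GRCh38.p14) were matched for 7 of the 9 genes, HLA-B, HLA-C, B2M, TAP1, TAP2, PSMB8 and PSMB9, and not for HLA-E and NLRC5. Those of HLA-B and HLA-C are given for their unlike falls, those of TAP1 and PSMB9 for their shared peak and steep falls, and that of B2M for comparison. Each runs from 250 bases before the start to 10 after it, 5′ to 3′ in the direction of transcription, and is the reference sequence and not that of these cell lines. Capitals mark matches, on either strand, to an IRF element (GAAANNGAAA), an interferon gamma activated site (GAS, TTCNNNGAA), a Y box (CCAAT), the core of the X2 box or CRE (TGACG) and a kappa B site (GGGNNTTNCC).
HLA-B, chr6:31357170-31357429, minus strand: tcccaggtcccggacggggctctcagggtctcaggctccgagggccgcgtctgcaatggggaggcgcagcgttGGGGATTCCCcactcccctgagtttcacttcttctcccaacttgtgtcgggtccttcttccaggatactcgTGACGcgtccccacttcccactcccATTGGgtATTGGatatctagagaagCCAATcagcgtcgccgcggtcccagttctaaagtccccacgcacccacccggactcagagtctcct
HLA-C, chr6:31272083-31272342, minus strand: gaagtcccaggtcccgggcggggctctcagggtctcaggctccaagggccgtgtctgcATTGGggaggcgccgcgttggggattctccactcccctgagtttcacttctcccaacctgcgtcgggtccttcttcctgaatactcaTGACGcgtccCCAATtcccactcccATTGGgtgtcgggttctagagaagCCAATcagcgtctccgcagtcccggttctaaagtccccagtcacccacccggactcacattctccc
B2M, chr15:44711267-44711526, plus strand: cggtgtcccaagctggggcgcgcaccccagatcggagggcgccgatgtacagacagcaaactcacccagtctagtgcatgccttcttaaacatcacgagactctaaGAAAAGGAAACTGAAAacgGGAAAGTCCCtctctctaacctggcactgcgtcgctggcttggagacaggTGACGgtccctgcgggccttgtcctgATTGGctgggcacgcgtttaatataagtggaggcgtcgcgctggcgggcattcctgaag
TAP1, chr6:32853695-32853954, minus strand: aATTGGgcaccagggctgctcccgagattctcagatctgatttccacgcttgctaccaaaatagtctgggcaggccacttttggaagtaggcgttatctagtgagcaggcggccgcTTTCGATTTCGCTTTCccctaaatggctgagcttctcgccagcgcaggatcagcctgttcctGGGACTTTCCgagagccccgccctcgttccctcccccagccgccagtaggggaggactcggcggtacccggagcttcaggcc
PSMB9, chr6:32853942-32854201, plus strand: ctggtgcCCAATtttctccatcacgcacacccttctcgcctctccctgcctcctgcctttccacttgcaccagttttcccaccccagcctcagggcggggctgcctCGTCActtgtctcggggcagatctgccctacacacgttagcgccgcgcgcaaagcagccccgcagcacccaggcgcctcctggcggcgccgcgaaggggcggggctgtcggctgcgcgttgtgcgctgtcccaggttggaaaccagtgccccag

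HLA-B, HLA-C and B2M each carried an X2 core followed by Y box matches nearer the start, with the X2 core beginning 106, 105 and 75 bases before the start. The Y box matches after it began 81, 74 and 56 bases before the start in HLA-B, 95, 80 and 56 in HLA-C and 49 in B2M. HLA-B also held a kappa B match, 177 bases before the start, where HLA-C held none. TAP1 held 2 IRF elements that overlap each other, beginning 134 and 128 bases before its start, and a kappa B match at 72, and B2M held 2 overlapping IRF elements at 144 and 138 and a kappa B match at 125. In the PSMB9 window an X2 core on the opposite strand began 144 bases before the start and a Y box at 243, the latter being the same bases as the Y box at 249 of TAP1. PSMB8 had an IRF element across its canonical start and a GAS match 65 bases before it, and TAP2 an IRF element at 58. These PSMB8 matches lie outside the listed peaks. The other PSMB8 window, which overlaps the peak near that gene, held an X2 core 69 bases before its start.

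The IRF element was matched in 4 of the 7 genes, against 3.57% of all 35116 windows of 300 bases in the table, the kappa B site in 3 (5.68%), the GAS in 2 (7.66%), the X2 core in 6 (24.6%) and the Y box in 5 (34.6%). Genes with more than 1 start had more than 1 window. Of the genes with an IRF element, B2M had a 1.74-fold, TAP2 a 1.84-fold and TAP1 an 8.49-fold difference between the control groups, with PSMB8 at a count ratio of 30.8, while PSMB9, without such a match in its window, had 33.1-fold. The IRF elements of TAP1 lie under the peak shared with PSMB9 but outside the PSMB9 window, so the lack of a match depends on the window's edge. A match is a run of letters, and binding was not tested.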

How the data were processed

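The authors aligned ribosomal RNA-depleted, stranded RNA-seq reads to hg38 with STAR 2.7.3, removed duplicates with Picard and deposited raw read counts per gene made with HTSeq 0.11.1. How reads matching several genes were treated is not given in the sources used here. The table held 23622 genes with at least 10 counts over the 12 libraries, and 15760 remained after filterByExpr. Counts were tested in 1 model of the 4 groups with edgeR 4.0.16 in R 4.3.3 (glmQLFit and glmQLFTest, TMM factors 0.965 to 1.05, 8 residual degrees of freedom) with Benjamini-Hochberg adjustment. DESeq2 1.42.0 served as an alternative, and the scripts were tested on simulated data. Intervals of count ratios and floors of 3 counts cover counting error only. Gene positions and canonical transcripts came from GENCODE 44 (GRCh38).

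For ATAC-seq the authors aligned with Bowtie2 2.4.1 and deposited 1 MACS2 peak list per condition, made from 3 control and 2 cisplatin replicates. The deposited fold enrichment, a ratio over local background, was reported, and the deposited −log10 q-value was used only to rank peaks. Peaks overlapping 1000 bases either side of a start were counted without a test. Damage-repair maps (XR-seq) of 2 samples were not analysed here.

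The 9 genes and all lists were chosen with earlier results of these data known. Of each list, at most 4 genes with the smallest adjusted p were named, with lists of 3 or fewer named whole, together with the nearest tested neighbours and the 3 genes nearest in pattern to HLA-B, B2M and NLRC5. A few genes that these rules would name are not reported here. Pairs of libraries of 1 group differed by 0.731 to 1.53 times the counting noise, so a fit with the closest pair merged in 3 groups was added after the data were seen. Other alternatives were size factors, filters, the 2 groups alone, a replicate block and leaving out each library.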

Additional observations from a re-analysis of the deposited data

How the results depend on the processing

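All 9 genes stayed lower in Acis cells, with an adjusted p under 0.05 in both treatments, in every alternative fit that tested them, and none reversed (PSMB8 was not tested with a mean of at least 50 counts, nor between the control groups with those 2 groups alone). DESeq2 called 4 genes after cisplatin in A2780 cells and 1 in Acis cells, and total counts as library size called 8 in A2780 cells, adding TAP2, and 4 in Acis cells, where they moved the median of all genes by 0.05. Leaving out 1 library gave 1 to 3 called genes in Acis cells, with 1 without Acis cisplatin replicate 3, and 0 to 1 for the interaction. Replicate numbers did not pair the libraries (correlations of same-numbered deviations from -0.205 to 0.282), and a replicate block gave 7, 3, 9, 9 and 0 called genes in the order of A2780 cisplatin, Acis cisplatin, the lines in control, the lines after cisplatin and the interaction, the added gene being B2M (log2 fold change 0.17, adjusted p = 0.0465). Merging the closest libraries gave 7, 2, 9, 9 and 0. The calls of HLA-B and PSMB9 in A2780 cells were also lost without A2780 control replicate 1 (adjusted p = 0.0597 and 0.202), and that of PSMB9 without A2780 cisplatin replicate 1 (0.14) or replicate 2 (0.0561) and with no filter (0.0753). B2M in Acis cells passed in 6 of 20 fits.

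Changes of direction were seen only for cisplatin and interaction differences that were not called in any fit. NLRC5 in A2780 cells became 0.05 with a mean of at least 50 counts, 0.01 with the 2 groups alone and 0.10 with total counts, and ran from -0.08 to 0.02 with 1 library left out. In Acis cells NLRC5 became 0.03 with total counts and ran from -0.16 to 0.04, and PSMB9 from -0.31 to 0.38. For the interaction, total counts gave -0.01 for HLA-B, -0.03 for TAP1 and -0.06 for PSMB8, a mean of at least 50 counts gave -0.01 for TAP1, RLE factors gave -0.01 for PSMB8 and no filter gave 0.00 for NLRC5. With 1 library left out the interaction ran from -0.00 to 0.11 for HLA-B, -0.07 to 0.13 for TAP1, -0.66 to 1.98 for PSMB8, -0.52 to 0.17 for PSMB9 and -0.15 to 0.05 for NLRC5. The cause was not tested. Depth limits PSMB8 and PSMB9 in Acis cells, where no library held more than 7 counts of either.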

Other observations

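The reads were aligned to the reference alleles, and the effect of the cell line's own alleles on the counts of HLA-B, HLA-C and HLA-E was not tested.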
